A study of Mus musculus with 17 samples.

Results

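Slc34a2, Fam222a, Lrfn3, Unc13b and Asap2 are 5 of the 12334 genes in a table of liver RNA, and 44 of the 57499 regions in a matching table of H3K9ac had 1 of them as the gene of the nearest start site. The genes were picked because both their RNA and the H3K9ac at their promoters were lower in mice on a high-fat diet (HFD) than in mice on a control diet (CD). Their own differences between the diets, in both assays, are therefore given as descriptions without a test. H3K9ac is acetylation of histone H3 at lysine 9.

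The livers came from C57BL/6 mice, an inbred laboratory strain. HFD livers were from mice that had eaten food with 60% of its calories as fat for 10 weeks, and CD livers from mice given food with 18% of calories as fat over the same 10 weeks. No genotype, drug or other agent was labelled for either diet. Poly(A) RNA was sequenced in 4 HFD libraries (A, B, C and D) and 4 CD libraries (A, B, C and D), and H3K9ac chromatin in 3 HFD libraries (A, B and D) and 3 CD libraries (A, C and D). The design text gives 4 mice without saying whether that is per diet, while the 8 RNA columns carry 8 different numbers in their headings. It is not stated whether a letter marks the same mouse in both assays, at what hour livers were collected, or whether the mice had been fed. What the heading numbers mark and the diet cannot be told apart. The p-values below measure the spread between these libraries.

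Acetylated lysine 9 on histone H3 is found at the start sites of genes that are being transcribed, because acetyltransferases are recruited there with the transcription machinery, while deacetylases remove it. It is read by immunoprecipitating sheared chromatin with an antibody and sequencing the DNA. The 5 genes do not form a pathway. Slc34a2 encodes NaPi-IIb, a sodium-dependent phosphate cotransporter of the cell surface known best from the small intestine and lung. Unc13b encodes Munc13-2, which prepares secretory vesicles for fusion. Asap2 encodes a GTPase-activating protein for Arf proteins, small GTPases of membrane traffic. Lrfn3 encodes SALM4, a leucine-rich-repeat adhesion protein described at synapses, and Fam222a encodes aggregatin, a protein described in brain whose cellular role is little known.

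The RNA libraries held 31802893 to 37596560 counts each, and the H3K9ac libraries 9255635 to 12149497. Levels are in CPM, counts scaled to a common library size with a correction for composition. A change is the log2 ratio of HFD to CD, given with its standard error (SE). In the tests, features with a Benjamini-Hochberg adjusted p below 0.05 are said to pass the threshold. As a check of the tissue, 11 hepatocyte markers were measured, from a list of 12 names that included an alternative symbol. Their summed level was 135448 to 159258 CPM in HFD livers and 122526 to 138467 CPM in CD livers. Albumin (Alb) made up the largest share, at 85339 CPM in HFD livers and 70081 CPM in CD livers. The counts given to the urea cycle gene Ass1 were low, at 2.69 CPM in HFD livers and 1.41 CPM in CD livers. Whether they hold all reads of that gene was not tested, so they are not read as its level in liver. The other 9 listed markers averaged 689 CPM or more in both diets.

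The promoter sequences of the genes are shown first, since at each gene except Lrfn3 the region over the start was the strongest acetylated region of the locus. RefSeq (build GRCm38.p6) gave a window of 300 bases, 250 before the start and 50 after, for 4 of the 5 genes. The windows lie at chr5:53049103-53049402 on the + strand (Slc34a2), chr5:114568001-114568300 on the + strand (Fam222a), chr7:30362723-30363022 on the - strand (Lrfn3) and chr4:43058703-43059002 on the + strand (Unc13b). They are written 5′ to 3′ along the gene, and capitals mark every match to 1 of the 9 motifs searched.
Slc34a2: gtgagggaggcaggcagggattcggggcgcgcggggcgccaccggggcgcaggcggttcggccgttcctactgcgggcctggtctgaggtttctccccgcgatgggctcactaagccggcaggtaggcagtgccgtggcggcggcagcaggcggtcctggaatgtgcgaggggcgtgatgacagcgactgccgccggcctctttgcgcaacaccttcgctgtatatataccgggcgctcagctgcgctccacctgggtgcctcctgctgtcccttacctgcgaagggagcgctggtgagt
Fam222a: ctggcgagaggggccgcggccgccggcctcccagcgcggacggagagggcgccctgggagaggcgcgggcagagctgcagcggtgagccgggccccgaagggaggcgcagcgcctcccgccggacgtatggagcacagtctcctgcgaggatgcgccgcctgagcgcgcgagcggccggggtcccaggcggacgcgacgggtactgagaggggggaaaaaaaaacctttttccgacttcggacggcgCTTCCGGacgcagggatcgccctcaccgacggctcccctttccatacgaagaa
Lrfn3: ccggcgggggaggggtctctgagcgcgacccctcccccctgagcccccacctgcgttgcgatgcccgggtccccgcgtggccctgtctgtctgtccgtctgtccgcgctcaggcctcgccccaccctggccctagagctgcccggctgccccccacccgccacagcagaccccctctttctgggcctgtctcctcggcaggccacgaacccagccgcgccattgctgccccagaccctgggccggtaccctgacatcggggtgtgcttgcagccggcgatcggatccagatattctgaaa
Unc13b: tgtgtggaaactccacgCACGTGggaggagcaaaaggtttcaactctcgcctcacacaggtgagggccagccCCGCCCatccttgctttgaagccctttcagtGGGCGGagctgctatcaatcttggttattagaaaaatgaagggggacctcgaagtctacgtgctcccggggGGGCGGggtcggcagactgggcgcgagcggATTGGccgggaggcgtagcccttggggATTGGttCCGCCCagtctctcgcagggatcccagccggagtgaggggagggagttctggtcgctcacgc

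The 4 windows were rich in G and C. GC content was 68.7% for Slc34a2, 71.7% for Fam222a, 71% for Lrfn3 and 62% for Unc13b, against a median of 52.7% over 32851 RefSeq windows of the same length. The ratio of observed to expected CpG dinucleotides was 0.862, 1.07, 0.659 and 0.71 in the same order of genes, against a median of 0.384. The H3K9ac region over the start site covered all 300 bases of the Slc34a2, Fam222a and Lrfn3 windows and 268 bases of the Unc13b window. The lncRNA Gm17182 overlaps the Slc34a2 gene by 3 bases at the Slc34a2 start, so acetylation there cannot be assigned to either of them.

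Both strands were searched for the GC box (GGGCGG), the CCAAT box (its own letters), the TATA box (TATAAA), the E-box (CACGTG), the D-box (TTANNTAA), the cAMP response element (TGACGTCA), the nuclear receptor half-site (AGGTCA), the ETS motif (CCGGAAG) and the AP-1 motif (TGA and TCA with any base between). Unc13b held 4 GC boxes, 2 CCAAT boxes and 1 E-box, and no match overlapped another. Among all windows, 35.7% held a GC box, 37.4% a CCAAT box and 7.15% the E-box. Fam222a held 1 ETS match, read on the opposite strand, which began 3 bases before the start; 8.86% of all windows held that motif. These letters were in neither the Slc34a2 nor the Lrfn3 window. The letters given for the TATA box (in 13.6% of all windows), D-box (6%), cAMP response element (1.79%), nuclear receptor half-site (16.3%) and AP-1 motif (7.81%) had no match in any of the 4. Variant forms of a motif, such as the tatatata in the Slc34a2 window, were not searched, so a lack of matches does not show that a motif is absent.

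The RNA of all 5 genes was lower in HFD livers, by 3-fold for Lrfn3 up to 27-fold for Slc34a2, and no HFD library of any of them reached a CD library. For all 5 the change was past the threshold that 7.27% of all genes passed in either direction and 3.64% passed as lower. All HFD libraries lay below all CD libraries for 7.01% of all genes. Since the genes were selected on these values, nothing is read from the counts. In whole liver, fewer cells of a type and less RNA per cell cannot be told apart.

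Slc34a2, the phosphate cotransporter (chr5:53049353-53071663, + strand), had 0.144, 0.151, 0.122 and 0.395 CPM in HFD A to D, against 5.46, 6.45, 4.69 and 5.61 CPM in CD A to D. HFD D was the highest HFD library and still stood far below the lowest CD library, CD C. The log2 change was -4.76 (SE 0.31), the most negative of the 12334 genes. These HFD levels rest on 5, 5, 4 and 13 reads, against 176, 242, 158 and 185 reads in CD libraries. From the summed reads, the level in CD livers was 28.6 times that in HFD livers, with a 95% interval of 19.5 to 43.6 that covers counting error only.

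Fam222a (chr5:114568251-114613218, + strand) had 2.41, 1.54, 2.01 and 2.40 CPM in HFD A to D, against 12.3, 12.5, 10.3 and 10.2 CPM in CD A to D. The libraries of each diet were close together, and the groups were several-fold apart. The log2 change was -2.44 (SE 0.17), at rank 27 among all genes from the most negative.

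Lrfn3, the adhesion protein gene (chr7:30355514-30362772, - strand), had 5.31, 4.61, 5.15 and 5.81 CPM in HFD A to D, against 14.8, 14.2, 14.9 and 18.1 CPM in CD A to D. Its HFD libraries were the most alike of the 5 genes, with a coefficient of variation of 9.46%, and CD D was the highest CD library. The log2 change was -1.57 (SE 0.13), the smallest of the 5 and at rank 101.

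Unc13b, the vesicle priming gene (chr4:43058984-43264887, + strand), had 5.95, 7.14, 8.26 and 9.92 CPM in HFD A to D, against 25.6, 36.2, 29.4 and 25.6 CPM in CD A to D. HFD A was the lowest library and HFD D the highest of the HFD group, while CD B was the highest of the CD group. The log2 change was -1.90 (SE 0.18).

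Asap2, the Arf GTPase-activating protein gene (chr12:21111756-21270171, + strand), had 4.31, 5.25, 7.86 and 9.95 CPM in HFD A to D, against 34.6, 33.5, 24.6 and 28.8 CPM in CD A to D. HFD A was again the lowest and HFD D the highest HFD library, and CD C was the lowest CD library. The log2 change was -2.15 (SE 0.24). The Asap2 gene overlaps the 3′ end of Itgb1bp1 by 2926 bases, and whether the counting used strand is not given in the sources used here; Itgb1bp1 had a log2 change of 0.01 (SE 0.13).

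**Figure D1:**
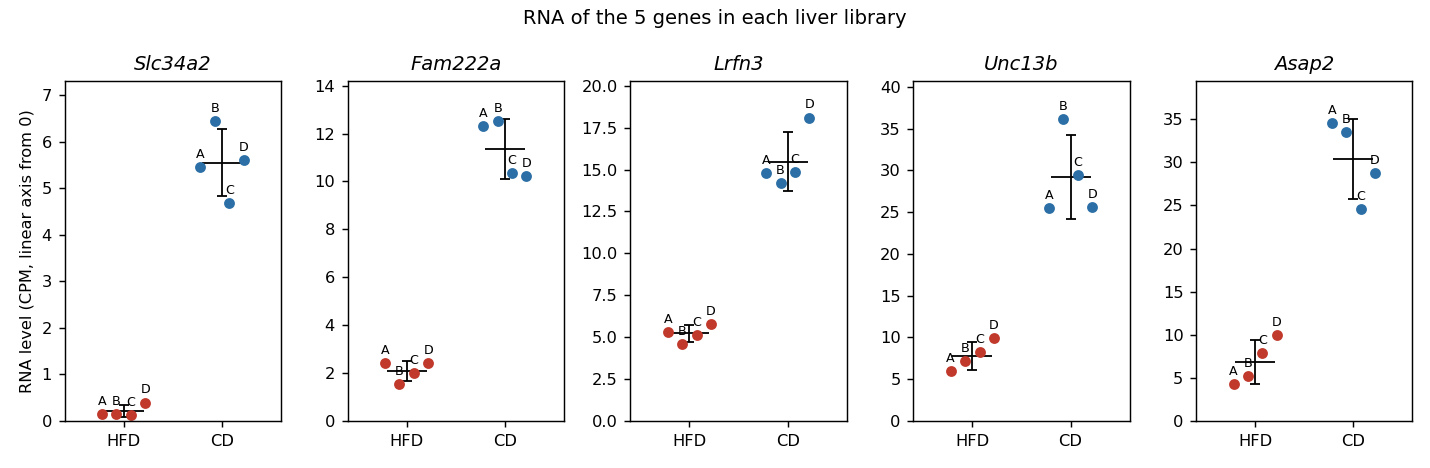
RNA level in CPM (linear axes from 0, 1 panel per gene) in each HFD library (left, red) and CD library (right, blue); letters name libraries, and black bars give the mean and SD of 4 libraries. In every panel the HFD libraries lie below the CD libraries, with the widest gap for Slc34a2 at 0.122 to 0.395 CPM in HFD livers and 4.69 to 6.45 CPM in CD livers.

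The genes also differed in how much their libraries varied. The coefficient of variation in HFD livers was 63.5% for Slc34a2, 37.4% for Asap2, 21.6% for Unc13b, 19.8% for Fam222a and 9.46% for Lrfn3, against a median of 16.4% over all genes. In CD livers it was 13% for Slc34a2, 15.2% for Asap2, 17.2% for Unc13b, 10.9% for Fam222a and 11.5% for Lrfn3, against a median of 11.97%. At the 4 to 13 reads of Slc34a2 in HFD libraries, counting error alone is a large part of the spread.

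Compared per length, on the log2 FPKM scale of the authors, the genes were of middling abundance in CD livers apart from Slc34a2. Mean log2 FPKM in HFD livers was 0.88 ± 0.14 for Lrfn3, 0.28 ± 0.31 for Unc13b, 0.20 ± 0.54 for Asap2, -0.35 ± 0.30 for Fam222a and -4.10 ± 0.61 for Slc34a2 (SD, n = 4). In CD livers it was 2.44 ± 0.16 for Lrfn3, 2.41 ± 0.23 for Asap2, 2.18 ± 0.24 for Unc13b, 2.08 ± 0.16 for Fam222a and 0.42 ± 0.19 for Slc34a2. In both diets Lrfn3 stood highest and Slc34a2 lowest, and neighbours in the order among Lrfn3, Asap2, Unc13b and Fam222a in CD livers differed by no more than the larger of their SDs. In HFD livers Lrfn3 stood above Unc13b by more than either SD, while Unc13b and Asap2 differed by less. The mean level of Slc34a2 was at percentile 0.146 of all listed genes in HFD livers and at percentile 22.5 in CD livers, while the other 4 lay at percentiles 15.5 to 28.1 in HFD livers and 44.9 to 50.5 in CD livers.

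Every one of the 5 genes had an H3K9ac region over its start site, and all 5 regions were lower in HFD livers. The Slc34a2 region (chr5:53048060-53049764) had 10.2, 10.1 and 11.1 CPM in HFD A, B and D, against 29.2, 18.5 and 28.1 CPM in CD A, C and D. The HFD libraries were nearly equal and CD C was lower than the other CD libraries. The log2 change was -1.27 (SE 0.15).

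The Fam222a start region (chr5:114567203-114570044) had 49.4, 46.7 and 54.0 CPM in HFD A, B and D, against 92.9, 102 and 112 CPM in CD A, C and D, a log2 change of -1.03 (SE 0.09). The Asap2 start region (chr12:21111210-21113139) had 62.3, 63.0 and 74.3 CPM in HFD A, B and D, against 108, 129 and 125 CPM in CD A, C and D, a log2 change of -0.86 (SE 0.08). These were the strongest of the 5 start regions, and in both genes HFD D was the highest HFD library and CD A the lowest CD library.

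The Lrfn3 start region (chr7:30361243-30363350) had 29.98, 23.4 and 31.9 CPM in HFD A, B and D, against 48.1, 44.9 and 50.3 CPM in CD A, C and D, a log2 change of -0.75 (SE 0.11). The Unc13b start region (chr4:43058735-43059721) had 23.7, 21.1 and 23.1 CPM in HFD A, B and D, against 35.5, 34.8 and 33.7 CPM in CD A, C and D. Its log2 change of -0.62 (SE 0.11) was the smallest of the 5, and HFD B was the lowest HFD library in both regions.

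**Figure D2:**
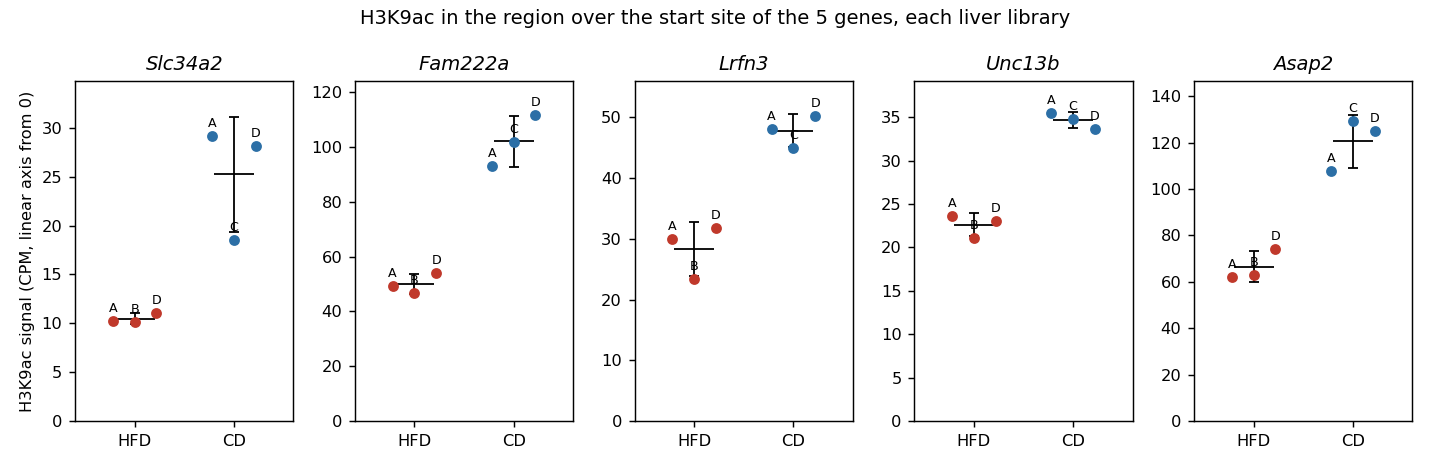
H3K9ac signal in CPM (linear axes from 0, 1 panel per gene) of the region over each start site in HFD libraries (left, red) and CD libraries (right, blue); letters name libraries, and black bars give the mean and SD of 3 libraries. HFD libraries lie below CD libraries in every panel, by a log2 change of -1.27 in Slc34a2 and -0.62 in Unc13b.

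Over all 44 regions of the 5 loci, 18 passed the threshold as lower in HFD livers and 0 as higher. All HFD libraries lay below all CD libraries in 34 of them. Among all regions of the table, 2.39% passed in either direction, 1.55% passed as lower, and in 8.36% all HFD libraries lay below all CD libraries. The start regions belong to the rule that picked the genes, and the other regions lie in the same loci and libraries, so these shares are a description. The log2 change was below 0 in 40 of the 44, with a median of -0.84, beside a median of -0.003 over all 57499 regions. Which regions passed differed from gene to gene. A region with few reads can be lower without passing, and a difference in reach between the genes was not tested.

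Slc34a2 had 4 regions. Of the pair before the gene, the region 6.89 kb before the start had 2.29 ± 0.77 CPM in HFD livers and 5.65 ± 0.54 CPM in CD livers (SD, n = 3 each), a log2 change of -1.33. The region 6.09 kb before the start had 1.603 ± 0.12 CPM in HFD livers and 3.06 ± 0.90 CPM in CD livers and did not pass the threshold. Beyond the 3′ end, 25.5 kb after the start, the last region was the single one of the locus with a value above 0, at 2.38 ± 0.35 CPM in HFD livers and 1.70 ± 0.31 CPM in CD livers, and it did not pass either. The Slc34a2 regions past the threshold thus lay at the start and before it, and the last region was the only one downstream of the start region.

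Fam222a had 19 regions, at percentile 98.2 of the genes with a region. The 6 regions past the threshold ran from 15.4 kb before the start to 5.88 kb after it, inside an intron. Apart from the start region these were at -1.08 (15.4 kb before), -0.89 (10.1 kb before), -1.28 (7.37 kb before), -1.30 (2.98 kb after) and -0.98 (5.88 kb after) on the log2 scale. Further into the gene, the 8 regions from 11.7 to 39.9 kb after the start had log2 changes between -0.82 and 0.35, and none passed. The ends of that range rest on 7 to 18 reads per library (29.97 kb) and 8 to 21 reads (34.4 kb). All HFD libraries lay below all CD libraries at 11.7, 13.2, 28.7, 29.97 and 39.9 kb, and not at 22.6, 26.4 and 34.4 kb. The region 26.4 kb after the start had 6.79 ± 0.46 CPM in HFD livers and 6.499 ± 0.91 CPM in CD livers. That region and the next, 28.7 kb after the start, overlap the lncRNA Gm34844, which was not among the listed genes.

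Lrfn3 had 8 regions, and its start region was not the one that differed most. A region 2.78 kb into the gene (chr7:30359097-30360885), 80.0% of whose bases are exonic, had 25.3, 22.1 and 36.2 CPM in HFD A, B and D, against 78.6, 82.7 and 72.3 CPM in CD A, C and D. Its log2 change was -1.50 (SE 0.11), against -0.75 at the start. In HFD livers this region averaged 27.9 ± 7.4 CPM beside 28.4 ± 4.5 CPM in the start region, and in CD livers 77.9 ± 5.3 CPM beside 47.8 ± 2.7 CPM (SD, n = 3 each), so that it was the stronger of the pair in CD livers. The intronic region next to it, 4.78 kb after the start, had 6.65 ± 0.28 CPM in HFD livers and 16.2 ± 0.90 CPM in CD livers, a log2 change of -1.28. The region 11.1 kb before the start had 5.09 ± 0.27 CPM in HFD livers and 4.92 ± 0.77 CPM in CD livers, a log2 change of 0.04. The region over the 3′ end of the gene, 7.03 kb after the start, had 1.82 ± 0.64 CPM in HFD livers and 2.51 ± 0.48 CPM in CD livers, a log2 change of -0.44 (SE 0.29), with overlapping groups, and did not pass. Beyond the 3′ end, the regions 8.07 and 8.77 kb after the start had log2 changes of -0.71 and -0.78. All HFD libraries lay below all CD libraries in both, and neither passed. The region 14.7 kb after the start had a log2 change of -0.28, with overlapping groups, and did not pass. The regions past the threshold at Lrfn3 were thus the start region and the next 2 downstream of it, so the word promoter covers only part of them.

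Unc13b, a gene more than 200 kb long, had no region apart from the one over its start.

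Asap2 had 12 regions, and those with the steepest decreases lay inside the gene, in introns, one of them with some exonic bases. The region 32.1 kb after the start (chr12:21143652-21143982) had 0.170, 0.521 and 0.220 CPM in HFD A, B and D, against 1.97, 1.75 and 1.49 CPM in CD A, C and D. HFD B was the highest HFD library there, and the values rest on 2, 6 and 2 reads in HFD libraries and 22, 21 and 15 reads in CD libraries. The log2 change of -2.45 (SE 0.54) was at rank 4 of all regions; without HFD B it was -3.10. At better depth, the region 56.2 kb after the start had 1.96, 1.48 and 2.75 CPM in HFD A, B and D, against 7.68, 7.58 and 7.33 CPM in CD A, C and D, a log2 change of -1.89 (SE 0.23).

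The other Asap2 regions past the threshold lay 22.8, 24.6 and 30.2 kb after the start, with log2 changes of -1.81, -1.63 and -1.71. All 5 of these regions changed more than the start region at -0.86, which still held 60.0% of the summed signal of the locus in HFD livers and 61.6% in CD livers. The authors' table gave an enhancer target for 4 of the 12 regions, at 24.6, 48.3, 54.3 and 56.2 kb, and the first and last of these passed. A region 121 kb before the start had 28.3 ± 2.3 CPM in HFD livers and 31.9 ± 1.9 CPM in CD livers. Another 4 regions lie inside the Asap2 gene, 98.0 to 153 kb after its start, and were assigned to Itgb1bp1; their log2 changes were -0.51, -0.14, -0.23 and 0.00, and none passed. The Asap2 regions past the threshold thus lay between the start and 56.2 kb after it.

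**Figure D3:**
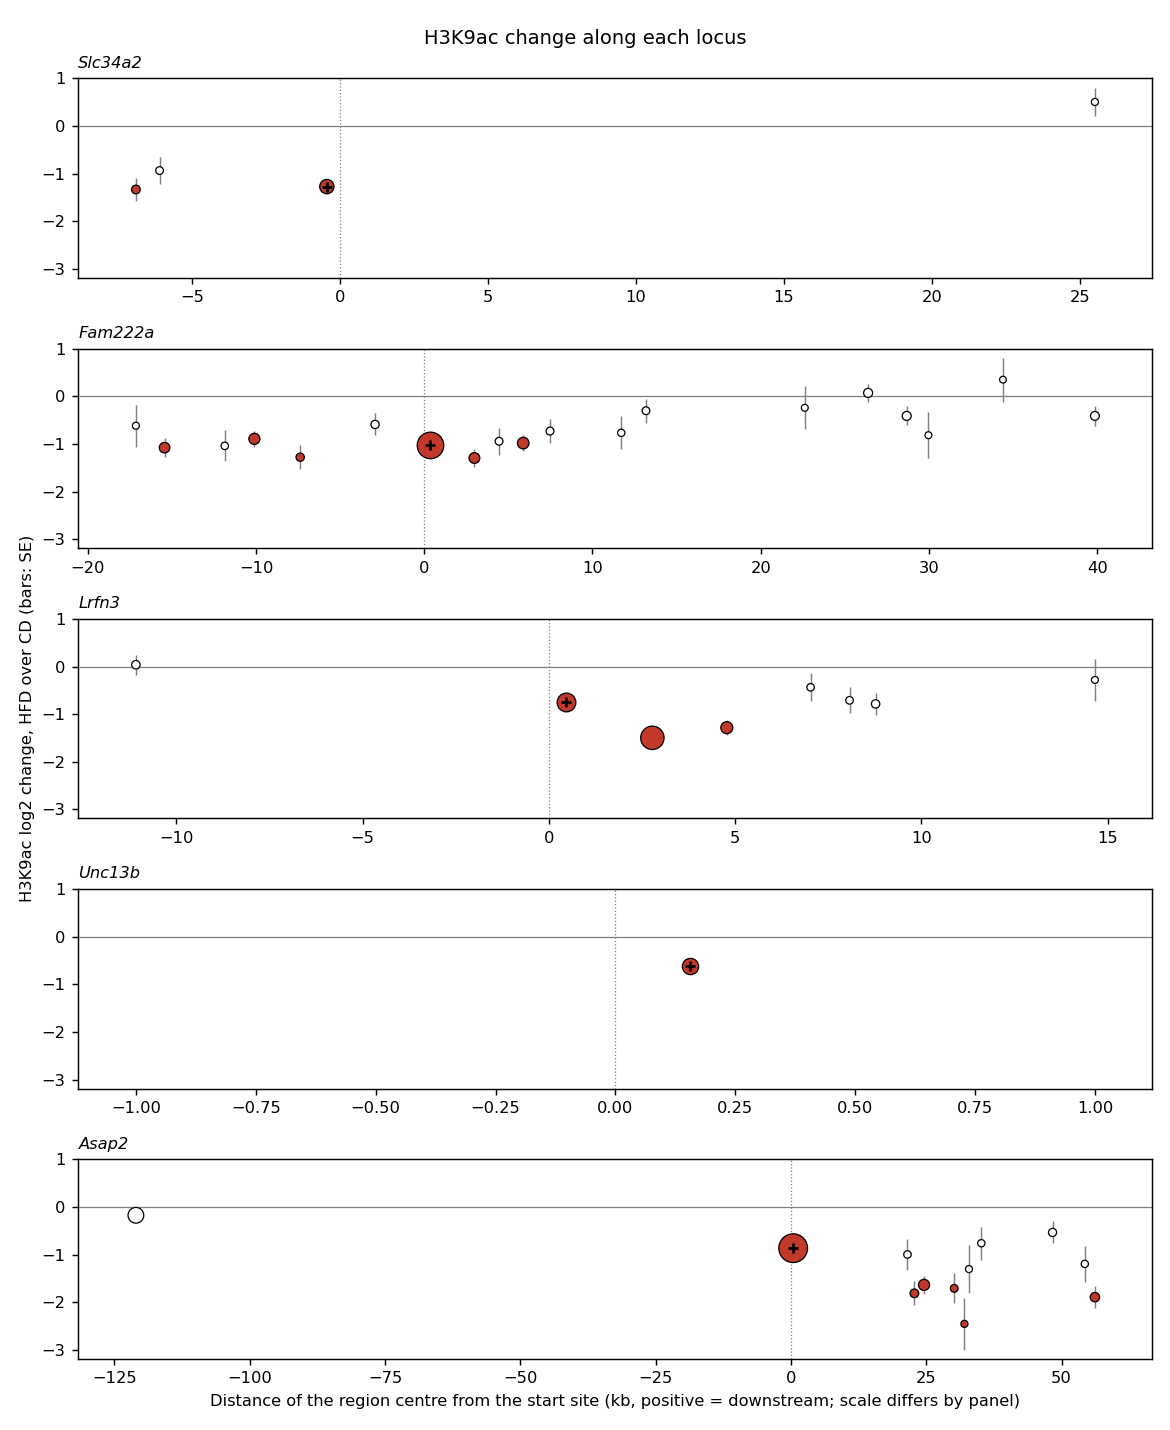
Log2 change in H3K9ac (HFD over CD, bars give the SE) of the 44 regions against the distance of their centres from the start site in kb, 1 panel per gene with its own distance scale. Filled circles passed the threshold, circle area rises with the CD level, and a cross marks the region over the start; Fam222a points from 11.7 kb onwards lie between -0.82 and 0.35, while the filled Asap2 points between 22.8 and 56.2 kb lie below its start region at -0.86.

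Summed over the regions of each locus, H3K9ac in HFD A, B and D was 15.9, 16.6 and 17.7 CPM at Slc34a2, against 41.0, 28.9 and 37.1 CPM in CD A, C and D. Fam222a summed to 108 ± 3.8 CPM in HFD livers and 200 ± 11 CPM in CD livers, and Asap2 to 111 ± 8.1 CPM in HFD livers and 196 ± 12 CPM in CD livers (SD, n = 3 each). Lrfn3 summed to 75.5 ± 12 CPM in HFD livers and 158 ± 4.4 CPM in CD livers. The start regions, on which the genes were picked, made up 37.6% to 100% of each sum in HFD livers and 30.2% to 100% in CD livers. The log2 ratios of the sums were -1.09 for Slc34a2, -1.07 for Lrfn3, -0.89 for Fam222a, -0.82 for Asap2 and -0.62 for Unc13b, over 3.09, 7.23, 19.9, 10.3 and 0.987 kb of regions.

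The genes were then set among all genes that were lower in both assays. Of 10101 genes with a region within 1000 bases of a start site, 352 passed in the RNA as lower, 187 passed in the strongest such region as lower, and 98 did both, among them the 5 genes. A single gene passed as lower in RNA and higher in H3K9ac. The 98 genes had a median log2 change of -1.24 in RNA and -0.50 in H3K9ac, and in 95 of them the RNA change was further from 0. From the most negative change, Slc34a2 stood at rank 1 in RNA and rank 5 in H3K9ac, Fam222a at ranks 10 and 9, Asap2 at 15 and 15, Unc13b at 21 and 36, and Lrfn3 at 31 and 23. The log2 change of each gene was thus further from 0 in RNA than in promoter acetylation, most of all in Slc34a2, at -4.76 against -1.27. The Slc34a2 RNA rests on 4 to 13 reads per HFD library. Input was not subtracted from the H3K9ac counts, so the sizes of change in the RNA and H3K9ac assays are not on the same scale.

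**Figure D4:**
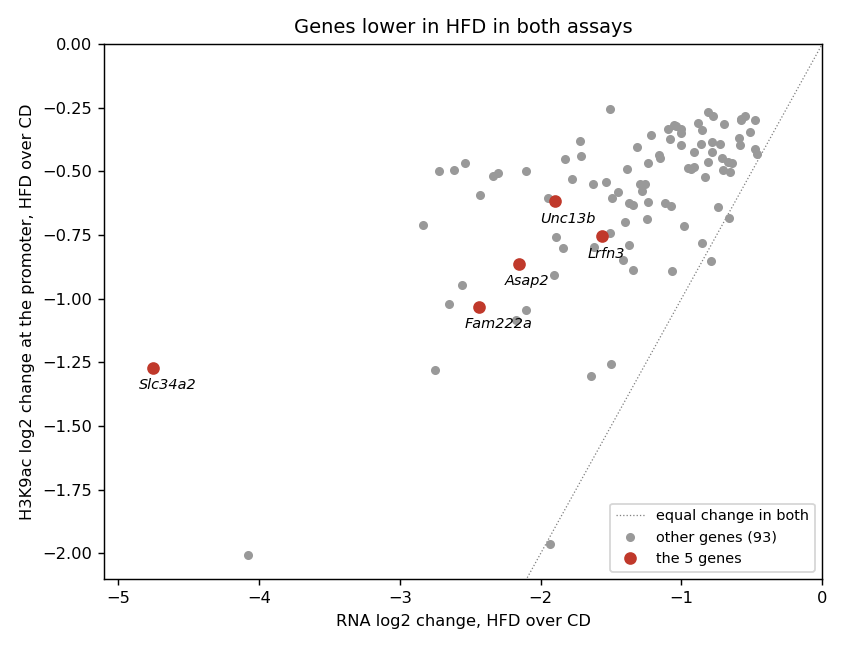
Log2 change in promoter H3K9ac against log2 change in RNA (both HFD over CD) of the 98 genes that passed the threshold as lower in both assays; red points are the 5 genes and the dotted line marks equal changes. Most points lie above that line, where the RNA change is the further from 0, and Slc34a2 has the most negative RNA change at -4.76.

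Genes beside the 5 loci were examined next. Of 17 neighbours in the RNA table within 100 kb, or the nearest on each side where none was that close, 0 passed in RNA as higher, 2 as lower and 15 did not pass, with a median log2 change of -0.01; over all genes 3.64% passed as lower. Mvk, the mevalonate kinase of cholesterol synthesis 124 kb before Fam222a, had 13.3 ± 2.5 CPM in HFD livers and 23.2 ± 4.6 CPM in CD livers (SD, n = 4 each), a log2 change of -0.80 (SE 0.18, edgeR adjusted p = 0.0213). Aplp1, an amyloid precursor-like protein gene 82.8 kb from Lrfn3, had 0.352 ± 0.053 CPM in HFD livers and 0.811 ± 0.18 CPM in CD livers, a log2 change of -1.19 (SE 0.27, edgeR adjusted p = 0.0228). The call of Mvk was lost without CD A, CD C or HFD B (adjusted p up to 0.063), and that of Aplp1 without CD A, CD B, CD D, HFD B or HFD C (adjusted p up to 0.0789).

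At the promoters of the 17 neighbours, log2 changes in H3K9ac ran from -0.65 to 0.15 and 1 passed, as lower, beside 1.55% of all regions. With 17 genes, these counts do not show whether neighbours differ from other genes. The promoter that passed was that of 5033403H07Rik, 57.1 kb before Slc34a2, with 8.95 ± 1.6 CPM in HFD livers and 14.2 ± 3.0 CPM in CD livers (SD, n = 3 each; log2 change -0.65, SE 0.17, edgeR adjusted p = 0.0189). Its RNA had 16.3 ± 4.0 CPM in HFD livers and 16.2 ± 1.9 CPM in CD livers, with a log2 change of 0.01 (edgeR adjusted p = 0.981). The H3K9ac call was lost without CD A, HFD B or HFD D, with DESeq2's test and among the stronger regions only (adjusted p up to 0.278). The neighbour with the shortest distance between start sites, Fam214b, 12.8 kb from Unc13b, had an RNA log2 change of -0.01 (SE 0.12) and passed in neither assay.

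Relatives and partners of the 5 genes were described from lists of 69 names, some of them alternative symbols. Of 52 that the RNA table held, 2 passed as higher, 1 as lower and 49 did not, with a median log2 change of 0.02, beside 0.01 over all genes, of which 7.27% passed in either direction. Promoter regions were found for 46 and none passed in either direction.

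Among phosphate transporters, Slc20a1, the widely expressed sodium-phosphate cotransporter PiT-1, was higher where Slc34a2 was lower. It had 41.9 ± 5.5 CPM in HFD livers and 21.3 ± 1.1 CPM in CD livers (SD, n = 4 each), a log2 change of 0.97 (SE 0.11, edgeR adjusted p = 0.000637). The call held in all 14 alternative settings, with an adjusted p of at most 0.00457, while its promoter H3K9ac did not pass (log2 change 0.18, SE 0.08). Slc20a2, which encodes PiT-2, had a log2 change of 0.22 (SE 0.09, edgeR adjusted p = 0.228), and the phosphate exporter Xpr1 of 0.15 (SE 0.16, edgeR adjusted p = 0.684). The paralogs Slc34a1 and Slc34a3 were not among the listed genes. On the log2 FPKM scale Slc20a1 stood at 3.32 in HFD livers and 2.36 in CD livers, above Slc34a2 at -4.10 and 0.42.

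Fam222b, the paralog of Fam222a, had 18.7 ± 0.81 CPM in HFD livers and 24.5 ± 2.5 CPM in CD livers, a log2 change of -0.39 (SE 0.10, edgeR adjusted p = 0.047). That call was lost with any single library left out except CD D, and with the letters as a block, at adjusted p-values up to 0.14. Its promoter H3K9ac had a log2 change of -0.01 (SE 0.09). The paralogs of Lrfn3 (Lrfn1, Lrfn2, Lrfn4 and Lrfn5) were not in the RNA table.

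Of the Munc13 family only Unc13d, which acts in granule release from blood cells, was measured beside Unc13b; its log2 change was -0.07 (SE 0.27, edgeR adjusted p = 0.941). Among 19 measured genes of vesicle priming and SNARE fusion, Vamp3, a vesicle SNARE of recycling endosomes, passed as higher, and 18 did not pass. Vamp3 had 11.8 ± 1.1 CPM in HFD livers and 8.57 ± 0.90 CPM in CD livers, a log2 change of 0.46 (SE 0.12, edgeR adjusted p = 0.0464). Leaving out any single library, or scaling by library totals, left it short of the threshold, with adjusted p-values up to 0.13.

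None of 22 measured ArfGAP genes and none of 6 Arf GTPase genes passed in RNA. The closest relatives of Asap2 were Asap1, with 19 ± 3.5 CPM in HFD livers and 26.5 ± 2.7 CPM in CD livers (log2 change -0.48, SE 0.14, edgeR adjusted p = 0.0774), and Asap3, with 14.8 ± 1.8 CPM in HFD livers and 15.6 ± 2.9 CPM in CD livers (log2 change -0.07, SE 0.15, edgeR adjusted p = 0.866). The ArfGAP list had a median of -0.05 and the Arf list of 0.14.

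The genes most like each of the 5 were sought by the root mean square difference of log2 levels, taken relative to the CD mean, over the 8 RNA libraries and 11315 genes. For Slc34a2 they were Csad, an enzyme of taurine synthesis, at 0.61, and Npas2, a circadian clock transcription factor, at 0.68. Fam222a was closest to Ppard, a nuclear receptor, at 0.23 and to Ugt1a9, a glucuronosyltransferase, at 0.29. Lrfn3 was closest to 4833411C07Rik and to Cyp8b1, the sterol 12-alpha-hydroxylase of bile acid synthesis, both at 0.16. Unc13b was closest to Jun, an AP-1 subunit, at 0.27 and Asap2 to Serpina1e, a serine protease inhibitor, at 0.26. The measure weighs the difference between the diets most, so the genes it finds are those with a similar log2 change, and all of those named were lower in HFD livers. Serpina1e and Ugt1a9 belong to families of near-identical genes, and their counts are uncertain.

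Among the 5 themselves, Asap2 and Unc13b were the closest pair, at 0.32, and each lay within the 7 genes most like the other. The same held for Fam222a and Asap2, at 0.38. HFD A to D gave Asap2 log2 levels relative to the CD mean of -2.79, -2.51, -1.93 and -1.59, and Unc13b -2.27, -2.01, -1.80 and -1.54. Both genes were lowest in HFD A and highest in HFD D.

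Marker genes of other liver cell types also differed between HFD libraries. Averaged over 12 measured Kupffer cell and macrophage markers, HFD A to D stood at -0.64, 0.00, 0.15 and 0.80 relative to the CD mean, and their summed level was 178 to 473 CPM in HFD livers and 231 to 337 CPM in CD livers. Over 12 stellate cell markers, HFD A to D stood at -0.63, -0.56, -0.00 and 0.35 (sums of 236 to 468 CPM in HFD livers and 314 to 372 CPM in CD livers). Over 12 sinusoidal endothelial markers they stood at -0.54, -0.27, 0.58 and 0.54 (sums of 179 to 361 CPM in HFD livers and 218 to 303 CPM in CD livers). In RNA none of the markers of these lists passed in either direction and none was at 0. HFD A was the lowest HFD library in each of these lists and for Asap2 and Unc13b. For Fam222a and Lrfn3 the lowest was HFD B, and for Slc34a2 it was HFD C. Averaged over the measured hepatocyte markers, HFD A was instead the highest, at 0.29, 0.23, 0.08 and 0.15 in HFD A to D. Ass1, with its low counts, weighed as much as any other marker in that mean. At the promoters, the stellate marker Reln passed as higher, with 57.8 ± 10 CPM of H3K9ac in HFD livers and 40.5 ± 7.9 CPM in CD livers (SD, n = 3 each; log2 change 0.51, SE 0.11, edgeR adjusted p = 0.00166). Of 9 lymphocyte markers 4 were measured, with sums of 7.18 to 16.4 CPM in HFD livers and 7.74 to 11.9 CPM in CD livers, and none passed.

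Cholangiocyte markers, of the bile duct lining, were the list with the lowest median, at -0.71 over 10 of 12 measured. HFD A to D stood at -1.11, -0.57, -0.66 and -0.26, and summed levels were 66.6 to 103 CPM in HFD livers and 100 to 117 CPM in CD livers. Sox9 alone passed, with 4.87 ± 1.5 CPM in HFD livers and 13.3 ± 4.6 CPM in CD livers (SD, n = 4 each; log2 change -1.45, SE 0.27, edgeR adjusted p = 0.00987), and it stayed past the threshold in each of the alternative settings that held it. The Sox9 promoter region had 72.3 ± 2.7 CPM of H3K9ac in HFD livers and 108 ± 11 CPM in CD livers (SD, n = 3 each; log2 change -0.58, SE 0.08, edgeR adjusted p = 1.43e-06), so Sox9 was among the 98 genes lower in both assays, at ranks 37 and 40. Krt19, a keratin of bile ducts, had 1.04 ± 0.59 CPM in HFD livers and 2.11 ± 1.3 CPM in CD livers (edgeR adjusted p = 0.222). The part of these cell types in the differences of the 5 genes was not tested.

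**Figure D5:**
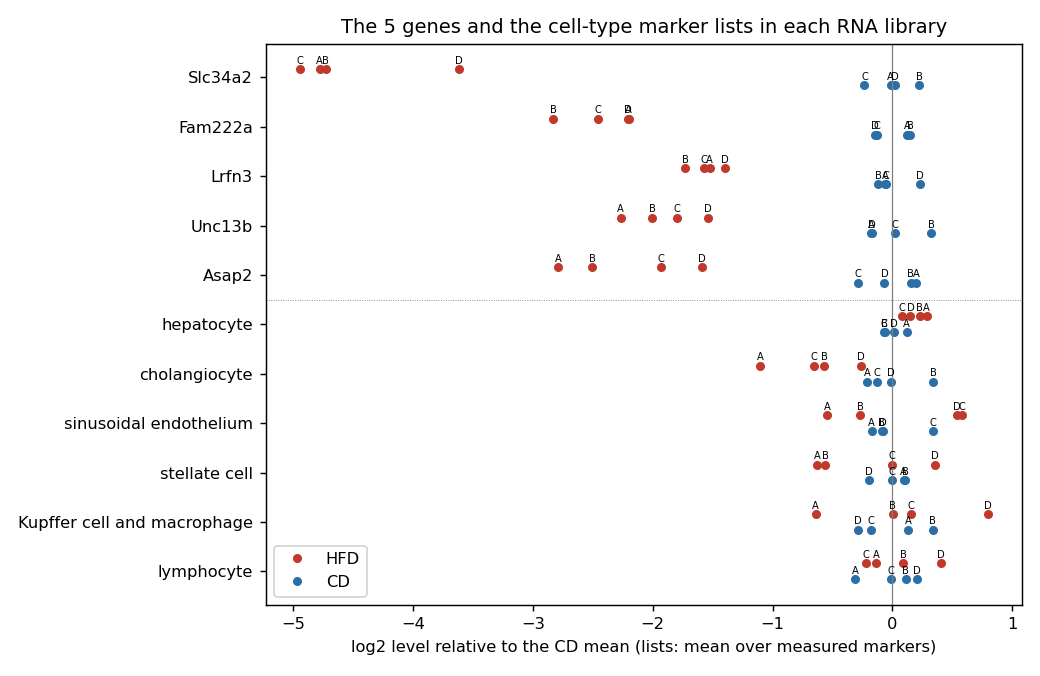
Log2 RNA level relative to the CD mean in each HFD library (red, upper row of a pair) and CD library (blue, lower row) of the 5 genes and of 6 marker lists (mean over measured markers); letters name libraries. The 5 genes lie between -4.94 and -1.40 in HFD libraries, while the list means lie between -1.11 and 0.80.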

How the data were processed

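RNA-seq counts per gene and H3K9ac ChIP-seq counts per region came from the authors' tables. The deposited values were raw read counts in both and, in the RNA table, log2 FPKM, per the file headers. Coordinates are in mm10, per the submitters' processing notes. The aligner, peak caller, read counter and use of strand were not given in the sources used here. Of the RNA table, 4999 blank lines were left out. The 57571 lines of H3K9ac described 57499 regions; 71 regions stood on several lines and were used a single time, and 119 lines with date numbers for gene names were used without a name. A total of 0 value columns were unmatched. Input and ATAC-seq libraries were not analysed here.

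Diets were compared in edgeR 4.0.16 (R 4.3.3): TMM scaling, filterByExpr (which removed 0 genes and 0 regions), glmQLFit and glmQLFTest with diet as the only term, two-sided, and adjusted p-values by Benjamini-Hochberg over all genes or regions, with 0.05 as the threshold. SE values derive from the F statistic. Log2 levels used a prior count of 2. Counting intervals have a confidence level of 95% and cover counting error only, with no molecular identifiers named in the labels. The test was checked on simulated data. All pairs of libraries of the same diet and assay differed by more than sampling noise (chi-square per degree of freedom at least 32 in RNA and 1.49 in H3K9ac). The members and all lists were chosen with earlier results of these data known. Named in full were the 5 genes, their paralogs, listed relatives past the threshold, neighbours past it, and the 2 most similar genes each, of which the second for Unc13b and for Asap2 is not reported here; Fam214b, Slc20a2, Xpr1, Krt19, Sox9, Reln, Alb and Ass1 were added after their values were seen. Regions were assigned to genes by the authors' nearest start site. Exonic bases are from the RNA table's exons. Sequences, with lncRNA positions, are from RefSeq (GRCm38.p6). Alternatives were DESeq2 1.42.0 size factors and test, library totals, no filter, features at or above the median level, each library left out, and the letter as a block.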

Additional observations from a re-analysis of the deposited data

Results flagged for a closer look

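In HFD livers, Slc34a2 RNA stood apart in library D, at 0.395 CPM, against 0.122 to 0.151 CPM in the other HFD libraries. The gap was 0.895 of the range of the group, above the limit of 0.829 for 4 libraries, which chance passes in about 1 of 20 groups; 10 groups were examined and 1 stood out. The value rests on 13 reads, and those of the other HFD libraries on 4 or 5. Without HFD D the log2 change of Slc34a2 was -5.29, beside -4.76 with it.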

How the results depend on the processing

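The log2 RNA changes of the 5 genes kept their direction in all 67 alternative values, and 66 lay within 1 SD of the reported value; the other is Slc34a2 without HFD D. Slc34a2, Fam222a and Lrfn3 lie below the median level and have no value among features at or above it. Over the 44 regions, 500 of 510 alternative values lay within 1 SD, 10 moved further, and no region past the threshold changed sign. No scaling moved the median of all features by over 0.043 on the log2 scale. DESeq2's test called 1405 genes and 670 regions, against 897 genes and 1372 regions, and 5 related genes in place of 3; features at or above the median level gave 543 genes and 887 regions, from fewer features tested. Leaving out 1 library gave 478 (HFD B) to 1107 genes (HFD A) and 563 (HFD B) to 1862 regions (HFD D), and 1 to 2 related genes. The cause of these shifts was not tested. Whether equal letters pair the libraries of the diets cannot be decided from so few libraries. Deviations of same-letter libraries had correlations of 0.295 (A), 0.061 (B), 0.235 (C) and -0.222 (D) in the RNA. In the H3K9ac they were 0.090 (A) and 0.081 (D). Libraries of different letters ran from -0.414 to 0.368 in the RNA and, for HFD A and D, from -0.118 to 0.035 in the H3K9ac. With the letter as a replicate block, 826 genes, 1277 regions and 2 related genes passed, 729 of the genes and 943 of the regions shared with the unblocked test. Depth limits Slc34a2 in HFD livers and the smallest Asap2 regions, where a library has 2 to 13 reads. It also limits the shallow regions of other loci. Among these are Fam222a regions 29.97 kb (7 to 18 reads) and 34.4 kb (8 to 21 reads) after the start. Another is the Lrfn3 region 14.7 kb after the start (7 to 21 reads).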
